A study of Mus musculus with 2 samples.

Results

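Dividing endothelial cells of the newborn mouse dentate gyrus were taken as barcodes that carried at least 1 UMI of at least 4 of 5 endothelial genes (Cldn5, Flt1, Pecam1, Cdh5 and Kdr) and of at least 3 of 6 genes of dividing cells (Top2a, Mki67, Ube2c, Cdk1, Pbk and Spc25). A UMI is 1 counted transcript molecule, and a barcode is 1 droplet, read here as 1 cell. Of 4996 cells kept, 190 met this rule: 76 of 1967 in the KO library and 114 of 3029 in the control library. Mice of the KO library were hGFAP-Cre;Kdm6bF/F, and those of the control library were littermates labelled WT with no further genotype. Both were dissected at postnatal day 2, with 2 animals pooled per genotype and no other agent named. The hGFAP-Cre transgene acts in radial glia and their progeny, so endothelial cells are not among the cells it is known to recombine.

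Endothelial cells line every blood vessel. In the newborn brain the vessel bed is still growing: tip cells lead new sprouts along VEGF, read by the receptors Kdr and Flt1, while stalk and vein-side cells behind them divide and supply the new wall. Dividing cells first copy their DNA in S phase, which takes the MCM helicase and nucleotide-making enzymes such as Rrm2, and then pass through G2 and mitosis, driven by Cdk1 with its cyclins and carried out by the spindle, kinetochore and chromosome passenger proteins (Top2a, Birc5, Cenpf, Cdca8). Brain endothelium also keeps the blood-brain barrier through tight junctions such as Cldn5 and transporters such as Mfsd2a and Slc2a1, and it is wrapped by mural cells, the pericytes and smooth muscle cells marked by Pdgfrb and Rgs5.

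Each genotype had a single library, so differences between them have no replicate check and are given without a test. Intervals are exact 95% intervals, they cover counting error only, and the values compare these 2 libraries rather than the genotypes. Every member of the KO library had Xist and no Y-linked UMI. In the control library 54 of 114 members did so and 41 (36.0%) had Y-linked UMIs without Xist, so sex and genotype could not be fully told apart. Another 16 control members had both and 3 had neither. Both were seen in 12 of 334 other dividing and 2 of 41 non-dividing endothelial control cells, which are defined below and were shallower. Whether barcodes with both held RNA of more than 1 cell was not tested. The libraries shared 9 barcodes as deposited and 6 among the cells kept, none of them a member.

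Members were the deepest cells of their type. They had a median of 33237 UMIs and 6210 genes in the KO library and 32390.5 UMIs in the control library, and their UMIs summed to 2564492 and 3636881. Non-dividing endothelial cells, defined by at least 4 endothelial genes and none of the 6 division genes, numbered 54 and 41 and had medians of 12627 and 10042 UMIs. Other dividing cells, with at least 3 division genes and at most 1 endothelial gene, numbered 172 and 334 and had medians of 11239 and 8273 UMIs. A deeper cell is more likely to show 1 UMI of each of 3 genes, so the rule favours deep cells.

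The values that chose the members are given as a description. All 76 KO members and 109 of 114 control members had all 5 endothelial genes, and 34 and 61 had all 6 division genes. Cldn5, a tight junction claudin, lay between 3.76 and 79.6 UMIs per 10000 in KO members (median 46.1) and between 10.8 and 80.4 in control members (median 45.5). Flt1, a VEGF receptor, had medians of 7.45 and 6.72 UMIs per 10000, and Kdr, the main signalling VEGF receptor, had 6.66 and 5.72. Top2a, the topoisomerase that untangles chromosomes, was at a median of 1.72 in KO members (0 to 8.70) and 1.67 in control members (0 to 10.9). Mki67, a chromosome coat protein of cycling cells, was at 1.21 in KO members (0 to 7.22) and 1.39 in control members (0 to 16.4). The ranges of the libraries overlapped for each of these 5 markers, and both the endothelial and the division markers were present. Just inside the threshold, 12 KO and 10 control members had exactly 3 division genes, with a median of 5 and 5.5 UMIs over the 6 genes. Just outside it, 29 KO and 26 control endothelial cells had 2 division genes, with medians of 2 and 3 UMIs.

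Most members also carried transcripts of mural cells. All 7 of Pdgfrb, Rgs5, Vtn, Kcnj8, Abcc9, Higd1b and Notch3 had a UMI in 46 of 76 KO members (60.5%) and 79 of 114 control members (69.3%), against 2 of 172 and 3 of 334 other dividing cells. Non-dividing endothelial cells, which were shallower than members, had all 7 in 40.7% of KO and 39.0% of control cells. None of the 7 was seen in 6 KO members and 1 control member. After thinning to 8000 UMIs, with shallower cells left out (75 of 76 KO and 110 of 114 control members and 128 of 172 and 176 of 334 other dividing cells remained), Rgs5, a signalling regulator of pericytes, still had a UMI in 93.3% of KO members and 99.1% of control members, against 6.25% and 11.4% of other dividing cells. Among thinned non-dividing endothelial cells Rgs5 had a UMI in 84.8% of 33 KO and 91.3% of 23 control cells. The 14 mural markers, none of them at 0, summed to 3626 CPM (3553 to 3701) in KO members and 4369 CPM (4302 to 4438) in control members, where CPM stands for a gene's UMIs in a class scaled by the class total. In non-dividing endothelial cells they summed to 5557 and 5862 CPM and in other dividing cells to 479 and 339 CPM. Barcodes with at least 5 of the 7 mural genes and at most 1 endothelial gene, 44 in the KO and 11 in the control library, had 27623 and 25033 CPM. Members thus carried 13.1% and 17.5% of the level of those mural barcodes. The division part of the rule was met by 4 of the 44 KO and 4 of the 11 control mural barcodes. Cldn5 had 5 UMIs over the 44 KO mural barcodes and 0 over the 11 control ones, but it is 1 of the 5 endothelial genes by which those barcodes were chosen, so its low level there was set by the choice. The part of mural transcripts in the results below was not tested, and it cannot be read from the counts whether a division transcript in such a barcode came from the endothelial or the mural side.

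**Figure D1:**
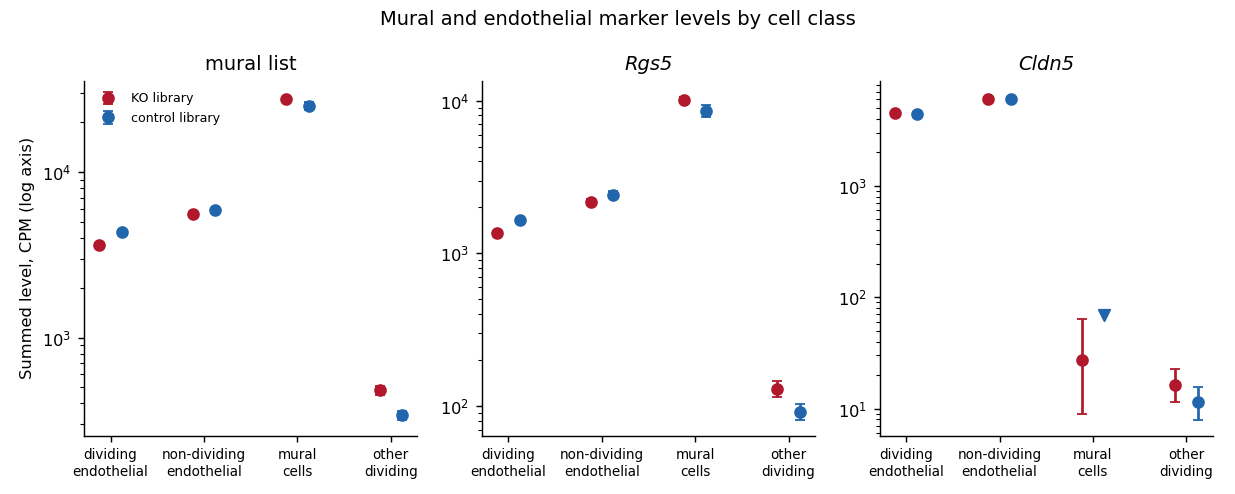
Summed level (CPM, log axis) of the mural list, Rgs5 and Cldn5 in dividing endothelial, non-dividing endothelial, mural and other dividing cells of the KO (red) and control (blue) library, with exact Poisson 95% intervals; the triangle is the upper limit where no UMI was seen. The mural list lay at 3626 and 4369 CPM in dividing endothelial cells, between mural barcodes and other dividing cells, while Cldn5 is low in mural and other dividing cells by their definition, which allows at most 1 of the 5 endothelial genes.

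Markers of other cell types were measured in the same way. Radial glia markers summed to 1787 CPM in KO and 2015 CPM in control members, of which Vim, also an endothelial filament gene, gave 46.0% and 44.0%, against 10250 and 11842 CPM in other dividing cells. Of the 14 microglia markers, 5 were at 0 in each library, P2ry12 and Trem2 among them. Neuron markers summed to 1210 UMIs in KO members, of which 1 cell held 833 (68.8%), and to 1052 UMIs in control members, of which 1 cell held 403. Fibroblast markers held 854 UMIs in KO and 1340 in control members, and 1 control cell had 562 of these. Haemoglobin and other erythroid genes summed to 25740 CPM in KO and 20627 CPM in control members and were uneven: the median member had 2 UMIs in the KO and 4 in the control library, and the highest had 9886 and 8426. Scrublet, a doublet caller, marked 7 and 4 barcodes in all (0.356% and 0.132%), too few to have worked, so no doublet was removed.

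The first comparison asked how large a part of the endothelial cells was dividing in each library. Dividing cells were 36.2% of endothelial cells in the KO library (76 of 210; 29.7 to 43.1%) and 49.8% in the control library (114 of 229; 43.1 to 56.4%). The log2 ratio of the shares was -0.46, with a ratio interval of 0.537 to 0.980. All endothelial cells together made up 10.7% of KO cells (9.35 to 12.1%) and 7.56% of control cells (6.64 to 8.56%). The members themselves were a similar part of all cells, 3.86% (3.06 to 4.81%) of the KO library and 3.76% (3.11 to 4.50%) of the control library.

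Depth was then held constant. When every cell was thinned to 8000 UMIs before the rule was applied, the share was 27.6% (47 of 170; 21.1 to 35.0%) in the KO library and 38.1% (74 of 194; 31.3 to 45.4%) in the control library. The log2 ratio stayed at -0.46, but its interval of 0.492 to 1.06 held 1. Thinned to 2000 UMIs, 5 of 122 KO and 11 of 106 control endothelial cells still met the rule, 4.10% and 10.4%. Among cells with 10000 to 20000 UMIs the share was 18.2% (8 of 44) in the KO and 33.3% (18 of 54) in the control library, and with 20000 to 40000 UMIs it was 47.7% (42 of 88) and 58.7% (64 of 109). Above 40000 UMIs it was 77.4% (24 of 31) and 93.3% (28 of 30). The KO share was the lower one in each of these depth classes, and within each class the interval of the ratio held 1. Among endothelial cells with Xist but without Y-linked UMIs, the shares were 36.9% in the KO and 49.5% in the control library, and control cells with Y-linked UMIs alone stood at 50.6% (39.3 to 61.9%).

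**Figure D2:**
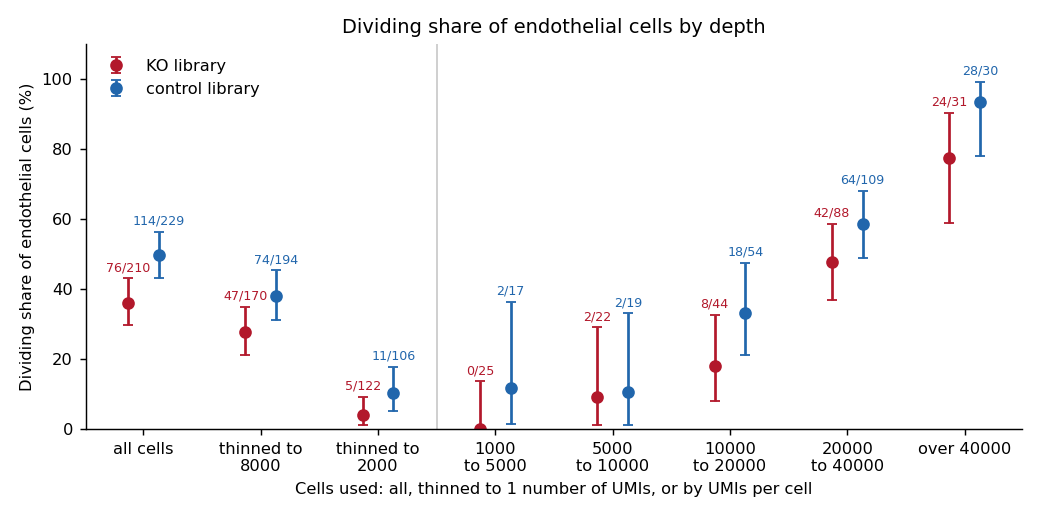
Share of endothelial cells that met the division part of the rule (%, vertical axis) in the KO (red) and control (blue) library, over all cells, after thinning to 8000 or 2000 UMIs, and by UMIs per cell; bars are exact Clopper-Pearson 95% intervals and labels give dividing over all endothelial cells. The share climbs with depth in both libraries, and the KO point lies below the control point at every depth, 36.2% against 49.8% over all cells.

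The share also moved with the mural level. Among endothelial cells with at least 8000 UMIs, those with 10 to 24 mural UMIs per 8000 were dividing in 68.8% of cases in the KO (22 of 32) and 75.8% in the control library (25 of 33). With 25 to 49 mural UMIs the shares were 44.0% (33 of 75) and 62.4% (58 of 93), and with 50 or more they were 33.3% (12 of 36) and 42.6% (23 of 54). With 0 to 9 mural UMIs they were 27.6% (8 of 29) and 22.2% (4 of 18), so the KO share was the lower one in all but this last class. Cells of this last class were also shallower, with a median of 17703 UMIs in the KO and 15948.5 in the control library.

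Cell cycle genes that the rule did not name were then compared between dividing and non-dividing endothelial cells of each library. Since the rule split the cells by division genes, this is a description of what came with them. Of 6979 genes with at least 50 UMIs in both libraries, 129 (1.85%) were at least 2-fold higher in dividing cells in both libraries and 9 (0.129%) at least 2-fold lower. In the list of G2 and M phase genes 35 of 47 measured members were higher in both libraries and none lower, with a median log2 ratio of 3.19 in the KO and 3.08 in the control library. The S phase list had 14 of 28 members higher and none lower, with medians of 1.24 and 1.27. Over all genes the medians were -0.09 and -0.05.

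Among the mitotic genes, Birc5, the survivin subunit of the chromosome passenger complex, had 500 UMIs over the 76 dividing and 4 over the 54 non-dividing cells of the KO library (log2 ratio 5.08), and 770 and 3 in the control library (5.02). In single dividing cells it ran from 0 to 13.6 UMIs per 10000 with a median of 1.53 in the KO library, and from 0 to 6.18 with a median of 1.93 in the control library, so some members lacked it. Cenpf, a kinetochore protein of G2 and M phase, had 358 UMIs in dividing and 5 in non-dividing cells of the KO library (4.31), and 497 and 1 in the control library (5.62). Cdca8, which is borealin of the same passenger complex as Birc5, had 251 and 2 UMIs (4.93) in the KO and 392 and 2 UMIs (4.54) in the control library. Cdc20, which activates the anaphase-promoting complex, had 227 and 3 UMIs (4.30) in the KO and 344 and 2 (4.35) in the control library. Hmmr, a spindle protein, was seen in no non-dividing cell, against 97 UMIs in dividing cells of the KO and 144 of the control library, at least 7.82-fold and 5.70-fold higher by the lower bound of the ratio interval. Prc1, the midzone bundler of the spindle, Cdca3 and the cyclin Ccna2 behaved alike in both libraries, with log2 ratios between 3.95 and 5.22.

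S phase genes were present beside them. Rrm2, the ribonucleotide reductase subunit that limits nucleotide supply, had 199 UMIs in dividing and 2 in non-dividing cells of the KO library, and 305 and 3 in the control library, or 77.6 and 2.57 CPM and 83.9 and 5.58 CPM. Mcm5, Mcm7, Tyms, Uhrf1, Dtl, Fen1 and Ccne1 were among the other 13 genes of the list that were at least 2-fold higher in both libraries. Replication-dependent histones, which are made as DNA is copied, were high as well. Hist1h2ap had 1389 UMIs in dividing and 14 in non-dividing KO cells (4.86), and 1151 and 3 in control cells (5.60), and Hist1h1b had 227 and 3 UMIs (4.30) and 212 and 0 UMIs. Of 25 chromatin and nuclear proteins typical of dividing cells, 11 were higher in both libraries and none lower. H2afz, a replacement histone, had log2 ratios of 1.12 and 1.22, and Stmn1, a microtubule destabiliser, 1.44 and 1.23. Among cyclins, CDKs and their inhibitors 7 of 17 measured genes were higher in both. Ccnd1, the cyclin of G1 entry, pointed the other way, with 236 CPM in dividing and 378 CPM in non-dividing KO cells (-0.68) and 192 and 285 CPM in control cells (-0.57).

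The promoters of 4 of the mitotic genes and of Rrm2 are shown as examples of the cell cycle genes described here, since mitotic promoters are known for CCAAT boxes, bound by NF-Y, and CHR elements, bound by the DREAM and MMB complexes. Each is the 250 bases before the RefSeq gene start, 5′ to 3′ on the gene's strand, in build GRCm38.p6. Capitals mark the letters CCAAT or the CHR letters TTTGAA or TTCGAA on either strand, where a reverse match to CCAAT reads ATTGG, and the matches do not overlap. The Birc5 promoter lies at chr11:117848987-117849236 (plus strand), that of Cenpf at chr1:189688087-189688336 (minus), that of Cdca8 at chr4:124936918-124937167 (minus), that of Cdc20 at chr4:118437344-118437593 (minus) and that of Rrm2 at chr12:24708004-24708253 (plus).
Birc5: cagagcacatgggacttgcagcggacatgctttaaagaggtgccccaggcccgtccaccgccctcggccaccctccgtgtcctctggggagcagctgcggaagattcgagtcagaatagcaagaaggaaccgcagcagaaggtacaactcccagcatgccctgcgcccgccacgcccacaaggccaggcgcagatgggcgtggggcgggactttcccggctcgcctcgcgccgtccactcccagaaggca
Cenpf: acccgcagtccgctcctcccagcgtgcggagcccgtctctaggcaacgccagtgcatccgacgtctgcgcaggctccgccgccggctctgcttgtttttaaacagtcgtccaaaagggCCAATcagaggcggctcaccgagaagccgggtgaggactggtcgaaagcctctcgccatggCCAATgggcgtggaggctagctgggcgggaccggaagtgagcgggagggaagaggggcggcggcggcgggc
Cdca8: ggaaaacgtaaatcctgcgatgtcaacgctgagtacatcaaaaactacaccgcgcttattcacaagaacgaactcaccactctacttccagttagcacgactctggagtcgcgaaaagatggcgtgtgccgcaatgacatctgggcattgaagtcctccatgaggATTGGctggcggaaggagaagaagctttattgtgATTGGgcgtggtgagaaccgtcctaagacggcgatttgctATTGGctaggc
Cdc20: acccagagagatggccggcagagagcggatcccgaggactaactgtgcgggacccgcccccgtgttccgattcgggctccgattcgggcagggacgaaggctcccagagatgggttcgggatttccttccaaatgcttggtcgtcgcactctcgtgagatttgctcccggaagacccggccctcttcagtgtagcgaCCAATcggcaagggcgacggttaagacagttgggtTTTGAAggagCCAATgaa
Rrm2: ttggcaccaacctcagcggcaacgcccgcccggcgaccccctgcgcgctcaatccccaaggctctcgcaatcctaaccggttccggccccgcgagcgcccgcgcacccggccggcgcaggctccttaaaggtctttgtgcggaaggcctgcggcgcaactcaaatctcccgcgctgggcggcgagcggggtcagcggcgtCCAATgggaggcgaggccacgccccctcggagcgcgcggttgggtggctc

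In these windows Cdc20 had 2 CCAAT boxes and 1 CHR, Cenpf 2 CCAAT boxes, Cdca8 3 in reverse and Rrm2 1, while the letters searched were not in the Birc5 window. RefSeq promoters were matched for 30 of the 35 G2 and M phase genes that were higher in both libraries, and 22 of the 30 (73.3%) held CCAAT, against 34.5% of all 27025 promoters of the same length. The CHR letters stood in 8 of the 30 (26.7%), against 17.4% of all promoters. Of the 13 matched S phase genes, 9 (69.2%) held CCAAT and 3 (23.1%) an E2F motif (TTTCCCGC, TTTGGCGC, TTTCGCGC or TTTGCCGC, either strand), which 1.91% of all promoters held. Barrier genes, which were not higher in dividing cells, held CCAAT in 4 of 21 promoters (19.0%) and the CHR letters in 6 of 21 (28.6%). That CHR share was no lower than in the 30 G2 and M phase promoters above. It was below that of the whole G2 and M phase list, where 18 of 49 matched promoters (36.7%) held the CHR letters. A match is a description of these letters and says nothing of binding in these cells.

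**Figure D3:**
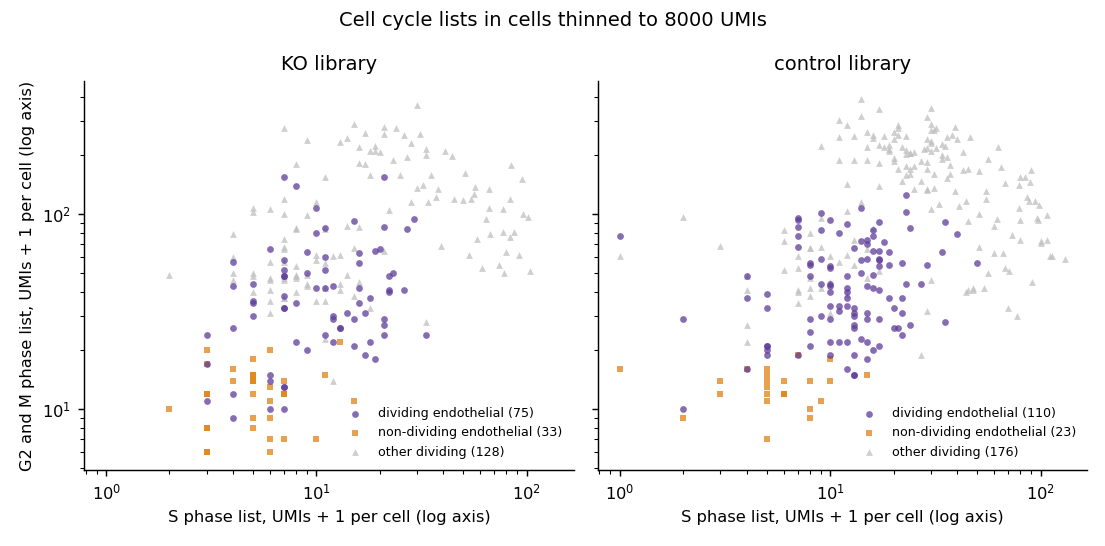
Each point is 1 cell thinned to 8000 UMIs, placed by its UMIs + 1 of the S phase list (horizontal, log axis) and of the G2 and M phase list (vertical, log axis), in the KO (left) and control (right) library. Classes were set before thinning, so deeper cells could meet the rule with fewer division UMIs per 8000. Dividing endothelial cells (purple circles) lie above non-dividing endothelial cells (orange squares) and mostly below other dividing cells (grey triangles), with median G2 and M phase UMIs of 35, 11 and 83 in the KO and 41, 13 and 139.5 in the control library.

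Set against other dividing cells, which carried the radial glia markers at the level given above, the members had fewer UMIs of the cell cycle lists per cell. After thinning to 8000 UMIs the median member had 35 UMIs of the 56 G2 and M phase genes in the KO library (8 to 155) and 41 in the control library (9 to 125). Other dividing cells had medians of 83 and 139.5. For the S phase list the members' medians were 10 and 12, against 14.5 and 27.5. Classes were set before thinning, and at 8000 UMIs only 47 KO and 74 control endothelial cells still met the rule. A deep member could meet the rule with fewer division UMIs per 8000 than a shallower cell. The rule thus allowed lower counts in members than in the shallower other dividing cells, and the size of this was not tested. In the summed counts 39 of 56 G2 and M phase genes were at least 2-fold lower in members in both libraries, with medians of -1.29 and -1.69, and none higher. The S phase list had 20 of 40 genes lower in both and none higher, and summed to 1385 CPM in members and 2757 CPM in other dividing cells of the KO library and to 1611 and 4159 CPM in the control library. Of all 9341 genes with enough UMIs, 24.3% were at least 2-fold lower and 12.3% at least 2-fold higher in both libraries, and the median of all genes was -0.41 and -0.42. TMM scaling, which sets most genes level, moved all ratios up by 0.48 and 0.49, and the medians of both lists stayed below 0 with it.

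Cholesterol synthesis genes went with them. Of 21 measured, 13 were at least 2-fold lower in members in both libraries and none higher in both, with medians of -1.49 and -1.96, and Hmgcs1, which starts the pathway, had 44.5 CPM in members and 253 CPM in other dividing cells of the KO library and 35.2 and 329 CPM in the control library. The 10 genes ranked most below included several of cilia. Foxj1, the master regulator of motile cilia, had 3 UMIs in members and 1965 in other dividing cells of the KO library and 8 and 1047 in the control library, and Meig1, Riiad1, Rsph1, Dynlrb2, Ccdc153, Pifo and Lrrc23, which are expressed in ciliated cells, were also among the 10, as were Mlc1, an astrocyte membrane protein, and the metallothionein Mt2.

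Vessel genes were compared between the same classes. Members were chosen for the endothelial genes of the rule, and other dividing cells for having few or none of them. Higher endothelial and barrier levels in members were thus built into the choice of cells, and the values are given as a description. All 24 barrier transport and junction genes were at least 2-fold higher in members in both libraries (medians 4.42 and 4.26), as were 21 of 22 endothelial genes outside the rule, the exception being Plvap, and 17 of 18 endothelial transcription factors. Slc38a5, an amino acid transporter of brain endothelium, had 2467 UMIs in members and 4 in other dividing cells of the KO library (8.87), and 3452 and 6 in the control library (8.85). It had a UMI in all 76 KO members and in 113 of 114 control members, with medians of 8.57 and 9.54 per 10000. Tek, the angiopoietin receptor, had 326 and 473 UMIs in members and none in other dividing cells, at least 75.1-fold and 111-fold higher by the lower bound of the interval. Car4, a membrane carbonic anhydrase of brain capillaries, was at 554 and 574 CPM in members against 2.74 and 4.11 CPM. Of 19 basement membrane genes 15 were higher in both, with Sparc at 3567 and 3298 CPM in members against 579 and 325 CPM. Interferon and MHC class I genes were higher in 11 of 15 cases and lower in none, B2m by 1.87 and 1.81. Mural markers were higher in 12 of 13, the exception being Acta2.

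Within the endothelium the dividing cells had the same vessel genes as the non-dividing ones at slightly lower relative levels. The 22 measured general endothelial genes had a median log2 ratio of -0.27 in the KO and -0.41 in the control library, the 24 barrier genes -0.33 and -0.43, and the basement membrane list -0.22 and -0.13. No gene of the first 2 lists was at least 2-fold lower in both libraries. The basement membrane medians turned to 0.17 and 0.14 in cells with few mural UMIs (fewer than 25 per 8000). That setting left only 7 KO and 6 control non-dividing cells, so the turned sign rests on few cells. Mfsd2a, the lipid transporter that keeps barrier transcytosis low, had medians of 3.72 UMIs per 10000 in dividing and 5.41 in non-dividing KO cells, and 2.97 and 6.04 in control cells, with overlapping ranges. The depth of the classes differed, as given above, and so did the mural list, which was lower in dividing cells by -0.62 and -0.42 on its summed log2 ratio.

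Venous and arterial genes differed in their position. The venous list lay near 0, with medians of 0.03 in the KO and 0.09 in the control library and no member past 2-fold in either. The arterial list was lower in dividing cells, with a median of -1.24 in the control library, where 7 of 10 measured genes were at least 2-fold lower and none higher, beside 2.02% of all genes lower and 4.67% higher in that library. In the KO library its median was -0.45, with none of 10 at least 2-fold lower, beside 0.948% of all genes, and 1 higher, beside 3.06%, which was Stmn2, also a neuron marker. Some arterial genes of the list were absent or nearly so. Gkn3 and Alpl had no UMI in either endothelial class of either library. Gja5 was seen in 0 of 76 KO and 4 of 114 control members, and in 0 of 54 and 1 of 41 non-dividing cells. Bmx was seen in 0 and 2 members and in 2 and 2 non-dividing cells. The list summed to 1441 CPM in dividing and 1809 CPM in non-dividing KO cells, and to 1062 and 2146 CPM in control cells. Hes1 alone gave 51.2% and 50.4% of the 2 KO sums and 38.1% of the sum in dividing control cells. In non-dividing control cells the largest part was Gja4, with 24.5%. Hes1 had medians of 7.56 UMIs per 10000 in dividing and 8.86 in non-dividing KO cells, and 3.79 and 3.59 in control cells. Gja4, the connexin of arterial endothelium, had 393 UMIs (153 CPM) in dividing and 210 UMIs (270 CPM) in non-dividing KO cells (-0.82), and 609 UMIs (167 CPM) and 283 UMIs (526 CPM) in control cells (-1.65). Its median cell had 1.27 UMIs per 10000 among dividing and 1.47 among non-dividing KO cells, and 1.25 and 2.87 among control cells, while its highest cell had 9.60 and 21.6, and 18.4 and 60.1. Cxcl12, a chemokine of arterial endothelium, had log2 ratios of -0.80 and -1.93, Hey1, a Notch target, -0.59 and -1.30, and Dll4, a Notch ligand, -0.23 and -1.01. Each of these 4 genes was lower in dividing cells of both libraries. The KO over control median of the list was 0.17 in dividing cells (11 genes; -0.15 after thinning to 8000 UMIs) and -0.72 in non-dividing cells (9 genes, with 2 at least 2-fold lower, beside 0.642% of all genes, and 1 higher, beside 0.784%). Whether the libraries differ in this was not tested. In endothelial cells with 10000 to 40000 UMIs the medians were -0.25 and -1.05, and against all endothelial cells with fewer than 3 division genes they were -0.36 and -0.81.

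Edn1, the vasoconstrictor endothelin, had 48.4 CPM in dividing and 102 CPM in non-dividing KO cells (-1.07), and 46.7 and 119 CPM in control cells (-1.36). Mmp9, a matrix-cutting protease, had 7.80 and 42.4 CPM in the KO (-2.43) and 18.7 and 48.4 CPM in the control library (-1.39). Vstm2b had ratios of -1.64 and -2.06, and Msx1, a homeobox factor, -1.45 and -1.55, each on fewer than 50 UMIs in every endothelial class. Sparcl1 and Itm2a, both abundant in brain endothelium, were lower by less than 2-fold, at -0.71 and -0.73 and at -0.62 and -0.87. Of 12 tip cell genes only Igfbp3 was at least 2-fold lower in both libraries, and the list had medians of -0.36 and -0.60. Apln, the apelin ligand of tip cells, was at -0.31 and -0.36. Its receptor Aplnr, carried by stalk and vein-side cells, was at -0.12 and 0.37.

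**Figure D4:**
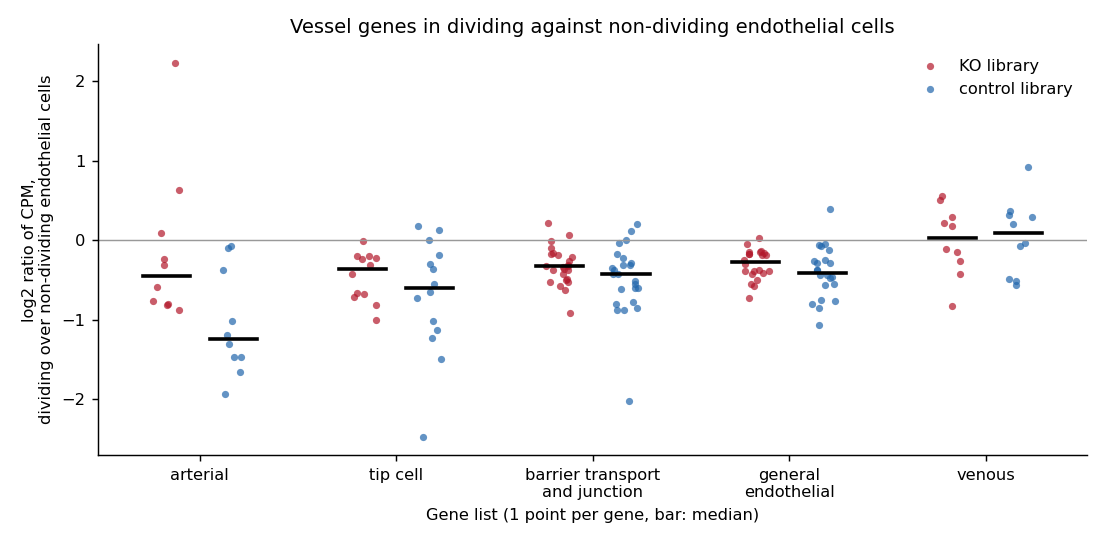
Log2 ratio of CPM in dividing over non-dividing endothelial cells (vertical axis) for genes of 5 vessel lists, 1 point per gene with at least 50 UMIs, in the KO (red) and control (blue) library; black bars are medians. Arterial genes are lowest in the control library (median -1.24, against -0.45 in the KO library), and venous genes lie around 0 in both (0.03 in the KO, 0.09 in the control library).

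The last comparison set the members of the KO library against those of the control library, to ask what differs in dividing vessel cells of mice that lost Kdm6b, an H3K27 demethylase, in the radial glial lineage. Kdm6b itself was in both: 275 UMIs or 107 CPM in KO members and 347 UMIs or 95.4 CPM in control members, a log2 ratio of 0.17 (ratio interval 0.956 to 1.32). The single members ran from 0 to 3.84 UMIs per 10000 in the KO and from 0 to 5.47 in the control library. A 3′ tag can lie outside the flanked exons, whose position none of the sources gives, so this does not check the labels. Its paralogue Kdm6a was at 0.40 (0.984 to 1.77) and Ezh2, which writes the same mark, at -0.19 (0.712 to 1.07). Of the 12 measured genes of H3K27 enzymes 1 was past 2-fold, and that was the Y-linked Uty.

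Few genes differed. Of 8794 genes with at least 50 UMIs over the members, 49 (0.557%) were at least 2-fold higher and 33 (0.375%) at least 2-fold lower in KO members, and the median of all genes was -0.01. None of the 22 general endothelial, 24 barrier, 19 basement membrane, 14 VEGF, Tie and apelin, 18 Wnt, 56 G2 and M phase or 37 S phase genes measured was past 2-fold in either direction. Their medians were 0.01, 0.09, 0.12, 0.15, 0.13, -0.12 and -0.20. In other dividing cells the same phase lists had KO over control medians of -0.52 and -0.57, and there 6.22% of genes were at least 2-fold higher and 2.44% lower.

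The genes named next were the 12 most above and the 12 most below by the interval bound nearest to 1, with sex-linked, haemoglobin, ribosomal protein and mitochondrial genes, predicted gene models and the genes of the rule left out of the ranking. Of those above, 5 rested on a few cells or on 1 cell in large part. Igkc, an antibody light chain, had 92 UMIs, all in 1 KO member, and 0 in control members, and Cd74, the MHC class II chaperone, had 57 UMIs against 3, with 52 of them in 1 cell. Plac8 had 50 UMIs in 4 KO members and 12 in 1 control member. Pcp4 had 41 UMIs, 27 of them in 1 KO member, against 14, and Mapt, the neuronal tau protein, had 206, 129 of them in 1 KO member, against 114. Without its highest cell in each library, a setting added after seeing the data, Mapt came to 0.81, and without endothelial cells that carried neural UMIs it came to 0.31. The neuron list, with 4 of 10 genes higher and a median of 0.85, went with the 1 KO member that held 68.8% of its UMIs.

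The others were spread over many members. Pmaip1, the p53 target Noxa that promotes cell death, had 74 UMIs in 46 of 76 KO members and 22 UMIs in 19 of 114 control members, with at most 5 and 3 UMIs per cell (28.9 against 6.05 CPM; log2 ratio 2.23; 2.93 to 8.07). It was also higher in non-dividing endothelial cells (1.74) and other dividing cells (1.97) of the KO library, and the median of the 13 measured p53 response genes was -0.09, with no other past 2-fold. Rgcc, a regulator of the cell cycle and an angiogenesis inhibitor, had 457 UMIs in 75 KO members and 294 in 92 control members (178 against 80.8 CPM; 1.14; 1.90 to 2.56). Its median member had 1.58 UMIs per 10000 in the KO and 0.67 in the control library, and the ranges of 0 to 6.16 and 0 to 5.47 overlapped. Non-dividing endothelial cells had Rgcc medians of 1.38 and 0.62, so the shift was not particular to members. Pcdh17, a protocadherin, had 145 UMIs in 56 KO members and 75 in 44 control members (1.45). Cd38, an NAD-consuming enzyme, had 97 UMIs in 50 KO members and 48 in 35 control members (1.51), and Tbx1, a T-box factor of vessel development, had 96 in 47 and 50 in 31 (1.44). Emp1, a membrane protein, had 64 and 31 UMIs (1.54). Ccl21a, a chemokine with near-identical copies whose reads cannot be told apart with certainty, had 394 UMIs in 23 KO members, 126 of them in 1 cell, and 233 in 21 control members (1.26). Among Xist-only cells the ratio of Ccl21a (ENSMUSG00000094686) was 0.18 and that of Tbx1 0.75.

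Among the genes most below was Btg3. This antiproliferative factor of the BTG family had 5 UMIs in 5 of 76 KO members and 89 UMIs in 59 of 114 control members, or 1.95 against 24.5 CPM (-3.52; 0.0253 to 0.193). No KO member had more than 1 UMI and no control member more than 4. It was also lower in other dividing cells of the KO library (1 against 26 UMIs; -3.61), and in non-dividing endothelial cells it had 5 UMIs in 5 of 54 KO cells and 6 UMIs in 6 of 41 control cells (-0.77), too few to show a difference. Mfap2, a microfibril protein, had 322 UMIs or 126 CPM in KO members and 766 UMIs or 211 CPM in control members (-0.74; 0.522 to 0.680), with medians of 0.994 and 1.78 UMIs per 10000. It was also lower in non-dividing endothelial cells of the KO library, with medians of 1.41 and 2.77. Anxa1, annexin A1, had 12 UMIs in 11 KO members and 52 in 40 control members (-1.57), Mrps27, a mitochondrial ribosome protein, 23 in 20 and 79 in 55 (-1.25), and Atic, a purine synthesis enzyme, 26 in 22 and 84 in 51 (-1.17). Rnaset2b was at -1.57 but has a near-identical copy, so its counts are uncertain. Madcam1, an adhesion molecule for lymphocytes, had 23 and 107 UMIs (-1.69), and Ackr1, the chemokine-binding receptor of venules, had 11 and 44 (-1.45). Mmp9 had 20 and 68 UMIs (-1.24), but -0.20 in endothelial cells of 10000 to 40000 UMIs. Cldn11 and Fxyd7 each had 27 UMIs in 1 control member, out of 43 and 50, and Slc7a11 had 33 of its 72 control UMIs in 1 cell and a ratio of -0.52 without the highest Scrublet scores.

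**Figure D5:**
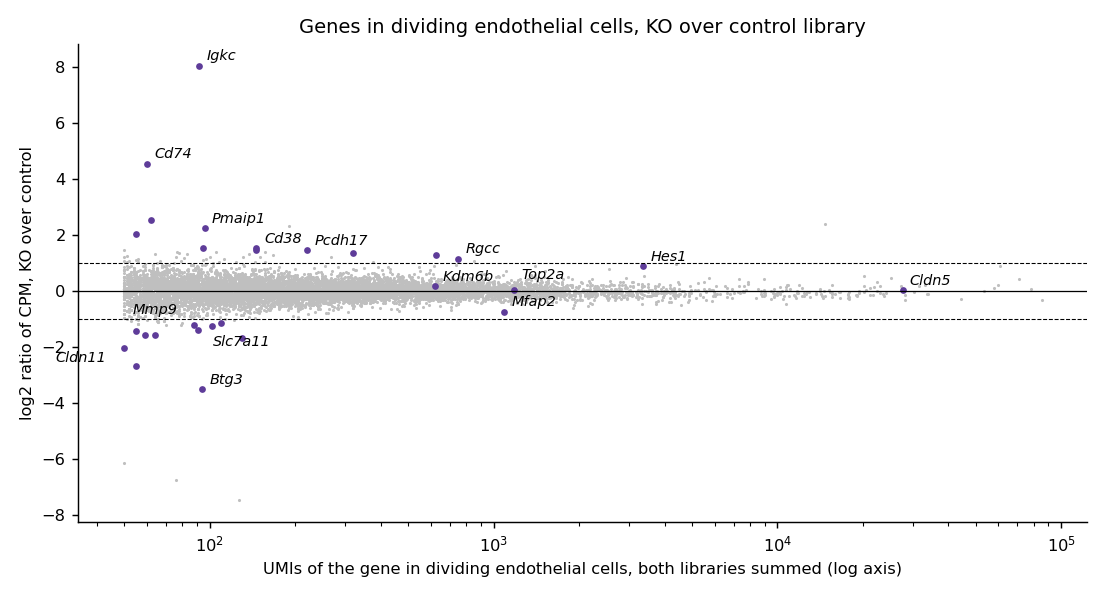
Each point is a gene in the dividing endothelial cells, placed by its UMIs summed over both libraries (horizontal, log axis) and by its log2 ratio of CPM, KO over control (vertical); purple points are genes named in the text and dashed lines mark 2-fold. Most genes lie around 0, with 49 of 8794 at least 2-fold higher in the KO library, such as Pmaip1 (2.23) and Rgcc (1.14), and 33 at least 2-fold lower, such as Btg3 (-3.52); the 3 grey points lowest on the axis are the Y-linked Ddx3y, Eif2s3y and Uty.

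Smaller shifts ran through some lists, of which the venous list alone, with Ackr1, had a gene past 2-fold. In the Notch pathway, which restrains sprouting and marks arterial cells, the summed level was 1487 CPM in KO and 1060 CPM in control members (0.49; 1.34 to 1.47). The list held 3813 UMIs in KO and 3856 in control members, and a large part of them came from Hes1. This target repressor had 1891 UMIs in KO and 1470 in control members (737 against 404 CPM; 0.87; 1.70 to 1.95), with medians of 7.56 and 3.79 UMIs per 10000 and ranges of 0.348 to 14.3 and 0 to 15.4. It was also higher in non-dividing endothelial (1.10) and other dividing cells (1.36). The ligand Dll4 was at 0.54 and Jag1 at 0.31, the receptors Notch1 and Notch4 at 0.10 and 0.34 and the target Nrarp at 0.24, and 8 of 12 measured genes lay above 0, with a median of 0.17. The tip cell list had a median of 0.23 and summed to 1122 CPM in KO and 963 CPM in control members. Among its genes, Apln had 480 and 446 UMIs (187 against 123 CPM, log2 ratio 0.61, ratio interval 1.34 to 1.74). Its medians were 1.64 and 0.710 UMIs per 10000. The Apln median was also higher in the KO library among non-dividing endothelial cells, so the shift was not particular to members.

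Clustered histone genes were higher in KO members, 967 against 643 CPM in sum (0.59; 1.42 to 1.59), with 7 of 9 measured genes above 0, a median of 0.50 and none past 2-fold. Hist1h2ap had 1389 and 1151 UMIs in 65 and 90 members, and Hist1h2ae was at 0.85 and Hist1h2bc at -0.37. In other dividing cells, the mix of cell types described above, the same list was lower in the KO library, with a median of -0.56. Interferon and MHC class I genes were lower in KO members, with 3 of 18 above 0, a median of -0.30 and none past 2-fold, B2m at 291 against 405 CPM (-0.48) and Ifitm3 at 193 against 260 CPM (-0.43). The glycolysis list summed to 3264 and 3914 CPM (-0.26), with Gapdh at -0.52 and Ldha at -0.48, but 8 of its 16 measured genes lay above 0 and its median was -0.01. Of the venous genes 4 of 11 lay above 0, with a median of -0.24, Vwf, the clotting factor stored in endothelium, at -0.52 and Icam1 at -0.48. These lists were 29 in all, and none of these shifts was tested.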

How the data were processed

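Single cells of P2 dentate gyrus were measured with a 10x Genomics 3′ assay in 1 KO and 1 control library, each pooled from 2 animals. The deposited values are raw UMI counts per gene and barcode, made by the authors with Cell Ranger 3.0.2, per the file headers; the submitters' processing notes also list mm10 and Seurat 3, without saying how they were used. No cell annotation was used. A barcode was kept if it had 500 or more genes, 1000 or more UMIs and a mitochondrial share of 10% or less (1967 of 2292 KO and 3029 of 3555 control barcodes).

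UMIs were summed per library and class, scaled by the class total over 31053 genes and compared as log2 ratios of CPM with 0.5 UMI added, for genes with at least 50 UMIs over the sums compared. The 11 genes of the rule were left out of counts of genes past 2-fold between classes, but not of counts between the libraries. Ratio intervals were exact conditional binomial, those of shares Clopper-Pearson and those of levels Poisson, all at 95%. PCR duplicates are removed by UMIs, but cells of a library are not replicates, so no p-value was computed. Scripts were tested on simulated data. Genes named were the 12 most above and below between genotypes, 10 in the other comparisons and up to 6 per list, ranked by the interval bound nearest to 1, with sex-linked, haemoglobin, ribosomal protein, mitochondrial, predicted and rule genes left out of the ranking. The members and the 29 gene lists were chosen with earlier results of these data known.

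Alternatives changed the rule, barcode filters, depth, doublets, sex, scaling and UMI minimum (14 planned and 4 added after seeing the data). Promoters are from RefSeq on GRCm38.p6; gene positions are not used otherwise. Python 3.11.15, numpy 2.4.6, scipy 1.17.1, pandas 2.3.3, scanpy 1.11.5 (Scrublet), R 4.3.3, edgeR 4.0.16 (TMM) and DESeq2 1.42.0 (median-of-ratios factors) were used.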

Additional observations from a re-analysis of the deposited data

Results flagged for a closer look

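Barcodes outside the quality filters were searched with the same gene rule. In the KO library 1 such barcode met it and in the control library 0 did, so the filters removed at most 1 candidate dividing endothelial cell per library. This barcode was left out of every count above.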

How the results depend on the processing

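The share of endothelial cells that divided was lower in the KO library under each of the 10 settings that changed it, with log2 ratios between -0.21 (endothelial cells with few mural UMIs) and -1.34 (cells thinned to 2000 UMIs), against -0.46 as reported. Counts of genes past 2-fold moved with the UMI minimum and the depth. For genes higher in KO members (49) they were 23 with at least 100 UMIs, 169 with at least 20, 1882 with no minimum, 1 and 31 after thinning to 2000 and 8000 UMIs, 23 without each gene's highest cell and 102 in cells with few mural UMIs. For genes lower (33) they were 6, 146 and 1786 at those minimums and 6 and 16 after thinning. For genes higher in dividing than non-dividing endothelial cells (129) they were 60, 224 and 410, 5 and 39 after thinning, 75 at 10000 to 40000 UMIs and 83 with few mural UMIs. For genes lower there (9) they were 1, 31 and 490 at the minimums, 0 after thinning to 8000 UMIs, 5 with TMM, with median-of-ratios scaling and in Xist-only cells, 15 with cells weighted alike, 3 without the highest cell, 2 at 10000 to 40000 UMIs, 26 with few mural UMIs, and 4 both against cells with fewer than 3 cycle genes and without cells carrying neural UMIs. The setting with few mural UMIs left only 7 KO and 6 control non-dividing cells for these counts. Against other dividing cells, genes higher (1149) were 23 and 491 after thinning and 2046 with no minimum, and genes lower (2274) were 1462 with TMM, 1478 with median-of-ratios scaling, 1448 with at least 100 UMIs, 5313 with no minimum and 105 and 901 after thinning.

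Of 1756 recomputed list medians 82 had the opposite sign to the reported one, in 30 of 105 pairs of a list and a comparison. In 74 of these the reported median was itself under 1.5-fold, as for the venous and glycolysis lists between dividing and non-dividing cells, whose sign is not settled. In the other 8 it was larger. Those of the cyclin and CDK list between dividing and non-dividing cells were -0.14 in the KO library thinned to 8000 UMIs, and in the control library -0.24 with at least 100 UMIs, -0.17 thinned to 8000, -0.065 at 10000 to 40000 UMIs and -0.28 with few mural UMIs. The value of -0.28 rested on 6 non-dividing control cells. Against other dividing KO cells, the Notch list was -0.064 and the p53 list 0.34 thinned to 8000 UMIs, and the S phase list 0.024 thinned to 2000. Apart from these 8, 1513 list medians stayed within the square root of 1.5 in fold of the reported one, whatever their sign, and 235 moved further. Of the values of named genes, 1702 stayed within the counting interval of the reported ratio and 117 left it. The cause was not tested. Thinning and higher minimums leave fewer UMIs and fewer genes to count. No paired analysis was possible because each genotype had 1 library.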
